A study of Homo sapiens with 29 samples.

Results

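Ribosome biogenesis and nucleolar genes were followed in DHL6 and DHL4, 2 established cell lines from diffuse large B-cell lymphoma. Both were treated with R406, the active form of fostamatinib, which inhibits SYK, a tyrosine kinase that relays signals from the B-cell receptor. The set was a list of 44 genes chosen by their role in making ribosomes, with earlier results of these data known. Of these, 38 were measured among 12165 genes with a usable probe set. The other 6, NOP58, GNL3, LYAR, NOB1, EBNA1BP2 and DDX18, were not analysed here. In each line, R406 (1 µM) was applied for 2, 6, 24 and 48 h, and DMSO, its solvent, served as the control. Every group had 3 arrays, except DHL4 in DMSO with 2, making 29 arrays in 10 groups. A cell line in culture lacks the other cells of a tumour. No time is given in the labels for DMSO treatment, and every R406 time of a line was set against the same DMSO arrays, so the 4 comparisons of a line share their controls and treatment time cannot be told apart from time in culture. The labels do not say whether replicate arrays stand for independent cultures, and the p-values therefore reflect the array-to-array spread, part of which may be technical.

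Ribosomes are built in the nucleolus. RNA polymerase I makes a long precursor of the ribosomal RNAs, small nucleolar ribonucleoproteins (snoRNPs) methylate it and convert uridines to pseudouridines, and large sets of assembly factors fold, cut and package the precursor into the small and the large ribosomal subunit. The transcription factor MYC is known to drive many of these genes in growing lymphocytes and in B-cell lymphoma.

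Values below are log2 expression per probe set as the authors deposited them, and a change is a log2 fold change ± standard error (SE) from 1 linear model of the 10 group means fitted with limma. A gene was called at a Benjamini-Hochberg adjusted p below 0.05 over the 12165 genes. Across genes, Pearson's r of 2 replicate arrays ran from 0.978 to 0.996, and the lowest value came from DHL6 at 48 h, where replicate 2 also stood apart for the ribosome biogenesis genes. RMA, the authors' summary method, places arrays on a common scale, so a change is relative to the other transcripts, and in bulk RNA a lower level per cell and fewer expressing cells cannot be told apart. Of 6 B-cell markers, 4 were measured: MS4A1, CD79A and CD79B had group means from 8.30 to 11.67, whereas PAX5 stayed near the lower end at 2.59 to 3.03 in every group. All 5 T-cell markers and the 3 measured monocyte and macrophage markers had group means at or below 3.29. Among 5 fibroblast and endothelial markers, COL1A1, COL3A1 and VWF stayed at or below 3.49, and DCN and PECAM1 exceeded that level in DHL4.

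The DHL4 arrays at 24 h stood apart from the rest of that line, and the DHL4 values at 24 h and the differences between 48 h and 24 h rest on these 3 arrays. Across genes they correlated with the DHL6 DMSO mean at r = 0.911 and with the DHL4 DMSO mean at r between 0.938 and 0.939. The other R406 arrays of DHL4 correlated with the DHL6 DMSO mean at 0.939 to 0.953 and with the DHL4 DMSO mean at 0.972 to 0.988. Of 12 genes at least 4 log2 units higher in DHL6 than in DHL4 in DMSO, all 12 were nearer to the DHL4 DMSO level in each DHL4 array at 24 h. Of 18 genes higher in DHL4 by that margin, 11 or 12 were nearer to the DHL4 DMSO level in these arrays, against 15 to 17 in the other R406 arrays of DHL4. Whether these arrays hold the labelled line alone was not tested beyond these values. This check was added after the values of DCN and PECAM1 were seen. The DHL4 comparisons of 2, 6 and 48 h with DMSO share with these arrays only the estimate of the spread and the normalization.

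The promoters of the genes are shown first because many genes of the set, whether or not they changed, have the same short sequence near the transcription start. RefSeq windows on GRCh38.p14, from 250 bases before to 50 bases after the first listed start, were given for 33 of the 38 genes. The sequence CACGTG, which reads the same on both strands and is known as an E-box bound by MYC among other factors, was present in 14 of these 33 windows (42.4%), against 25 of 82 windows of other assembly factors (30.5%), 3 of 52 of cytosolic ribosomal proteins (5.77%), 916 of 9711 of all genes on the array (9.43%) and 2030 of all 27305 windows (7.43%). All 14 held a copy between 20 bases before and 50 bases after the start, compared with 199 of the 9711 genes on the array (2.05%), and that narrower window was chosen after the positions were seen. Windows of 5 members with the motif and of DDX21 and NOP16, which had none, follow 5′ to 3′ in transcript direction with CACGTG in capitals. They lie at chr12:6568242-6568541 on the minus strand (NOP2), chr1:19251555-19251854 on the plus strand (MRTO4), chr6:41921249-41921548 on the plus strand (BYSL), chr7:105522222-105522521 on the minus strand (PUS7), chr17:51153309-51153608 on the plus strand (NME1), chr10:68955920-68956219 on the plus strand (DDX21) and chr5:176388549-176388848 on the minus strand (NOP16).
NOP2: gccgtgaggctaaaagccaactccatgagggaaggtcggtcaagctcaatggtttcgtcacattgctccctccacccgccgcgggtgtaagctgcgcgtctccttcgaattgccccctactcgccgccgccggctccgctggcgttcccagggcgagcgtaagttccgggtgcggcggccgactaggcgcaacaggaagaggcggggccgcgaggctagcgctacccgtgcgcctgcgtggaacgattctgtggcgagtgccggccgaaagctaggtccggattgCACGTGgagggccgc
MRTO4: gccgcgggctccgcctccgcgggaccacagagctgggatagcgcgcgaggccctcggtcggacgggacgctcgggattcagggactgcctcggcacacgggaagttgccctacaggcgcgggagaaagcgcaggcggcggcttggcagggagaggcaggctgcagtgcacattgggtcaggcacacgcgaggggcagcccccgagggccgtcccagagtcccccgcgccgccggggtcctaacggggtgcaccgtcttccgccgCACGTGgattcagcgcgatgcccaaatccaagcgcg
BYSL: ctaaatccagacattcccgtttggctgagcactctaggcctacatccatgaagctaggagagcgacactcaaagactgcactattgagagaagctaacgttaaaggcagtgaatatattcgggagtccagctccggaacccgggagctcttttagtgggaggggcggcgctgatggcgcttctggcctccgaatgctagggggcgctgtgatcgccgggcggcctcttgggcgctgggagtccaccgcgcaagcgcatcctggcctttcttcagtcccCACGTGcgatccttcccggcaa
PUS7: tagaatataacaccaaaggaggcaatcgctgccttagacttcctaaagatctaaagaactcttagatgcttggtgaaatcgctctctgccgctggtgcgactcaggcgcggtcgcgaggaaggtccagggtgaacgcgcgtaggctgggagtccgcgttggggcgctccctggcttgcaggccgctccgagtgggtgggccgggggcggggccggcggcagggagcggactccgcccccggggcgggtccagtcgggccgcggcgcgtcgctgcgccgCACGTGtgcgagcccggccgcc
NME1: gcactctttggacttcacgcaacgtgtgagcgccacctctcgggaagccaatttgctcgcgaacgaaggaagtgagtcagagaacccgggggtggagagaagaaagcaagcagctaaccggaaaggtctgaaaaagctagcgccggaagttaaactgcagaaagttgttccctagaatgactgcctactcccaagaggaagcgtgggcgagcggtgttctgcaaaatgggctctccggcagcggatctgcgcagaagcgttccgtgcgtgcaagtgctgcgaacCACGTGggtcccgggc
DDX21: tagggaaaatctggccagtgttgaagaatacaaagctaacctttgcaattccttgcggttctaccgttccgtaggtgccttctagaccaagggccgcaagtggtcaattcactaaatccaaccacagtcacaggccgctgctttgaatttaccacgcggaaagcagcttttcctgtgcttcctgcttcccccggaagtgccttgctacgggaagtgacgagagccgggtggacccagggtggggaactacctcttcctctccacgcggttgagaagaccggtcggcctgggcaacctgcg
NOP16: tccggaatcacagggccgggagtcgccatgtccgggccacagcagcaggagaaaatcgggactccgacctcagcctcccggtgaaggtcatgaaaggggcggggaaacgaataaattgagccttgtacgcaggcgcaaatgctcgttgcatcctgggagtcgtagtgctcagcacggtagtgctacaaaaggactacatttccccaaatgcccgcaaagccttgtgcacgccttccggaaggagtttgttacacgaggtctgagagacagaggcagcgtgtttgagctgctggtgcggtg

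Counted from 0 at the start base, CACGTG began at 35 in NOP2, 14 in MRTO4, 28 in BYSL, 28 in PUS7 and 34 in NME1. A match describes the letters in the window and does not show that any factor binds there. With the probe sets used, having the motif did not go with a larger change at 24 h in DHL4. There, 12 of the 14 genes with CACGTG were called lower, with a median log2 fold change of -1.73. Of the 19 without it, 17 were called lower, with a median of -1.76. With the motif, RRP9 (dim) and PNO1 were not called, and without it POLR1B and NOC4L (dim) were not. The other PNO1 probe set was called lower there, at -3.83. DHL6 and the other times were not split this way. These splits are descriptions with no test.

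In DHL6, R406 lowered 8 of the 38 genes at 2 h, 0 at 6 h, 19 at 24 h and 28 at 48 h, and it raised 0 at any of these times. Over all genes tested, 3.16% were called lower at 2 h, 5.12% at 6 h, 8.17% at 24 h and 14.9% at 48 h, while 2.14%, 3.14%, 6.20% and 8.39% were called higher. The median log2 fold change of the 38 genes was -0.37 at 2 h, -0.06 at 6 h, -0.58 at 24 h and -0.65 at 48 h, beside medians of 0.01 to 0.04 over all genes across both lines. At 6 h, 5 genes were lower and 2 higher at an unadjusted p below 0.05, and quantile normalization left 0 called lower and 1 called higher. For 37 of the 38 genes the 95% interval of the 6 h change lay within 1 log2 unit either side of 0, over a range from -1.21 to 0.92. The 2 h count was 5 without DHL6 DMSO replicate 1, and 15 in a fit on the compared groups alone. The 48 h median was -0.42 after quantile normalization of the deposited values, with 22 genes called lower and 1 higher.

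In DHL4 the calls came earlier and ended by 48 h for most genes. R406 lowered 25 of the 38 genes at 2 h, 27 at 6 h and 34 at 24 h, against 6.81%, 6.36% and 16.5% of all genes called lower. It raised 0 of the 38 at these times, against 2.67%, 6.42% and 13.0% of all genes called higher. The median log2 fold change was -0.90 at 2 h, -0.95 at 6 h and -1.92 at 24 h, and 29 of the 38 genes were called lower by at least 2-fold at 24 h. At 48 h only DKC1, TSR1, MRTO4 and DDX21 were called lower, 4 genes against 3.80% of all genes, and NHP2 was called higher, against 3.53% of all genes called higher. The median at 48 h was -0.18. Leaving out either DHL4 DMSO array left 2 genes called lower at 48 h, while the 24 h count was 34 whichever array was left out.

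The set is brighter than most genes on the array, and dim genes are seldom called, so the counts were also set against genes with a mean log2 value of 5 or more, which kept 33 of the 38 members and 3897 genes. In DHL6 this left 9 members lower at 2 h (9.26% of these genes), 0 at 6 h (15.2%), 19 at 24 h (24.0%) and 26 at 48 h (38.8%). In DHL4 it left 24 lower at 2 h (19.1%), 26 at 6 h (17.3%), 31 at 24 h (41.7%) and 7 at 48 h (13.5%). At 6 h in DHL6 the members' share was therefore below that of genes of like brightness, and in the other comparisons it was above.

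**Figure D1:**
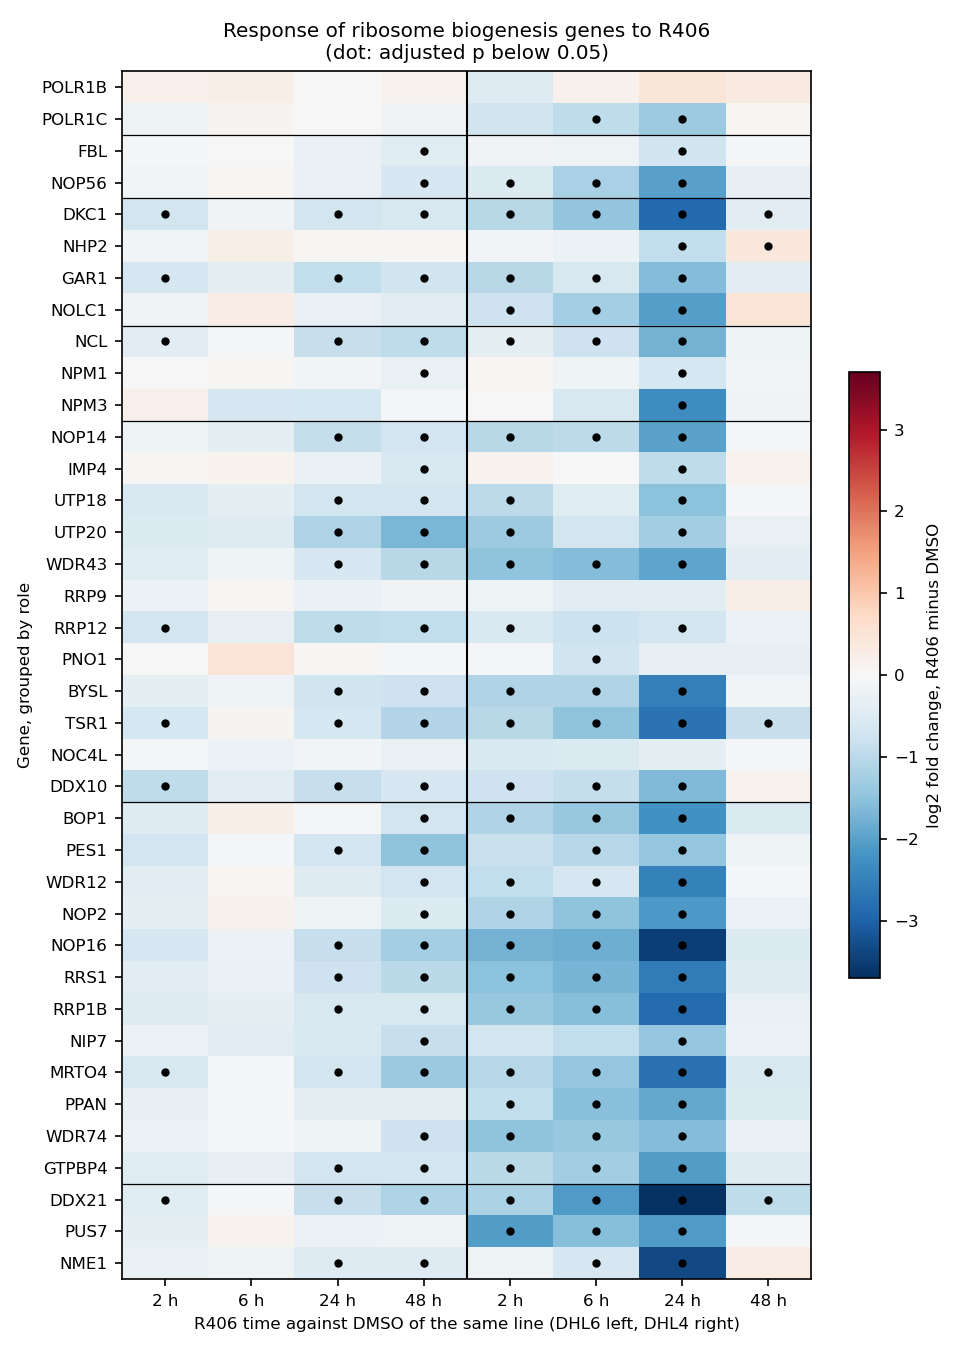
Log2 fold change (R406 minus DMSO of the same line, colour scale at right) of the 38 genes, grouped by role between horizontal lines, at 2, 6, 24 and 48 h in DHL6 (left) and DHL4 (right). Dots mark an adjusted p below 0.05. The DHL6 6 h column has no dot, 28 genes carry one at 48 h in DHL6, and 34 carry one at 24 h in DHL4 with 5 at 48 h.

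Arrays within a group were close for the set as a whole, with 1 exception. Taken as the median over the 38 genes of each array's difference from the DMSO mean of its line, the DHL6 arrays stood at -0.79, -0.34 and -0.70 at 48 h, with replicate 2 nearest to DMSO. The DHL4 arrays stood at -1.87, -1.89 and -1.86 at 24 h and at -0.12, -0.16 and -0.21 at 48 h. Leaving out replicate 2 of DHL6 at 48 h gave 29 genes called lower in place of 28. Counted without a test, every array of a group lay below every DMSO array for 25, 10, 27 and 29 of the 38 genes at 2, 6, 24 and 48 h in DHL6, where 11.8%, 13.5%, 18.3% and 19.3% of all genes did so. The same counts in DHL4 were 32, 35, 37 and 20 genes at 2, 6, 24 and 48 h, where 19.9%, 20.1%, 24.6% and 18.3% of all genes did so.

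DDX21 is an RNA helicase that works in RNA polymerase I transcription and in processing of the precursor. In DHL6 its log2 values, lowest first within each group, were 10.0, 10.03 and 10.16 in DMSO, 9.53, 9.63 and 9.65 at 2 h, 9.96, 10.02 and 10.02 at 6 h, 9.17, 9.19 and 9.27 at 24 h, and 8.61, 8.88 and 9.25 at 48 h. All arrays at 2, 24 and 48 h lay below DMSO, and those at 6 h overlapped it. In DHL4 the values were 10.0 and 10.07 in DMSO, 8.78, 8.88 and 8.90 at 2 h, 7.90, 7.97 and 7.98 at 6 h, 6.25, 6.37 and 6.52 at 24 h, and 9.01, 9.13 and 9.17 at 48 h. No R406 array of DHL4 reached its DMSO arrays at any time. The DHL6 changes were -0.46 ± 0.11 (adjusted p = 0.0113) at 2 h, -0.07 ± 0.11 at 6 h (not called), -0.85 ± 0.11 (adjusted p = 4.1e-06) at 24 h and -1.15 ± 0.11 (adjusted p = 4.16e-08) at 48 h. In DHL4, DDX21 changed by -1.18 ± 0.13 (adjusted p = 3.2e-07) at 2 h, -2.09 ± 0.13 (adjusted p = 9.98e-12) at 6 h and -3.66 ± 0.13 (adjusted p = 6.74e-17) at 24 h, the last a 12.7-fold fall and the largest of the 38 genes. At 48 h it was still lower, at -0.93 ± 0.13 (adjusted p = 1.64e-05).

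The other enzymes of the set are PUS7, a pseudouridine synthase acting on several kinds of RNA, and NME1, a nucleoside diphosphate kinase that supplies nucleotides. PUS7 values in DHL6 were 6.91, 7.19 and 7.23 in DMSO, 6.50, 6.79 and 6.94 at 2 h, 6.85, 7.42 and 7.43 at 6 h, 6.79, 6.88 and 6.97 at 24 h, and 6.71, 6.77 and 7.29 at 48 h. Its DHL6 groups overlapped DMSO at every time, and 0 of the 4 changes were called. In DHL4 the PUS7 values were 7.01 and 7.19 in DMSO, 4.32, 5.08 and 5.67 at 2 h, 5.40, 5.49 and 5.66 at 6 h, 4.70, 5.13 and 5.15 at 24 h, and 6.95, 7.10 and 7.15 at 48 h. The arrays at 2, 6 and 24 h lay at least 1 log2 unit below DMSO, and those at 48 h overlapped it. The fall at 2 h, -2.07 ± 0.26 (adjusted p = 3e-06) or 4.21-fold, was the largest of the set at that time. NME1 behaved differently in its timing. Its DHL6 values were 10.05, 10.11 and 10.16 in DMSO, 9.78, 9.82 and 9.94 at 2 h, 9.79, 9.99 and 10.02 at 6 h, 9.53, 9.57 and 9.76 at 24 h, and 9.46, 9.50 and 9.94 at 48 h. All R406 arrays of DHL6 lay below DMSO, and the changes at 24 h, -0.49 ± 0.14 (adjusted p = 0.0149), and 48 h, -0.47 ± 0.14 (adjusted p = 0.0131), were called. In DHL4 the NME1 values were 9.71 and 9.71 in DMSO, 9.34, 9.59 and 9.61 at 2 h, 9.05, 9.10 and 9.12 at 6 h, 5.97, 6.49 and 6.63 at 24 h, and 9.92, 10.0 and 10.04 at 48 h. The 24 h arrays lay far below all others, at -3.34 ± 0.15 (adjusted p = 9.06e-15) against DMSO, whereas the 48 h arrays all lay above DMSO without being called, at 0.28 ± 0.15 (adjusted p = 0.373).

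**Figure D2:**
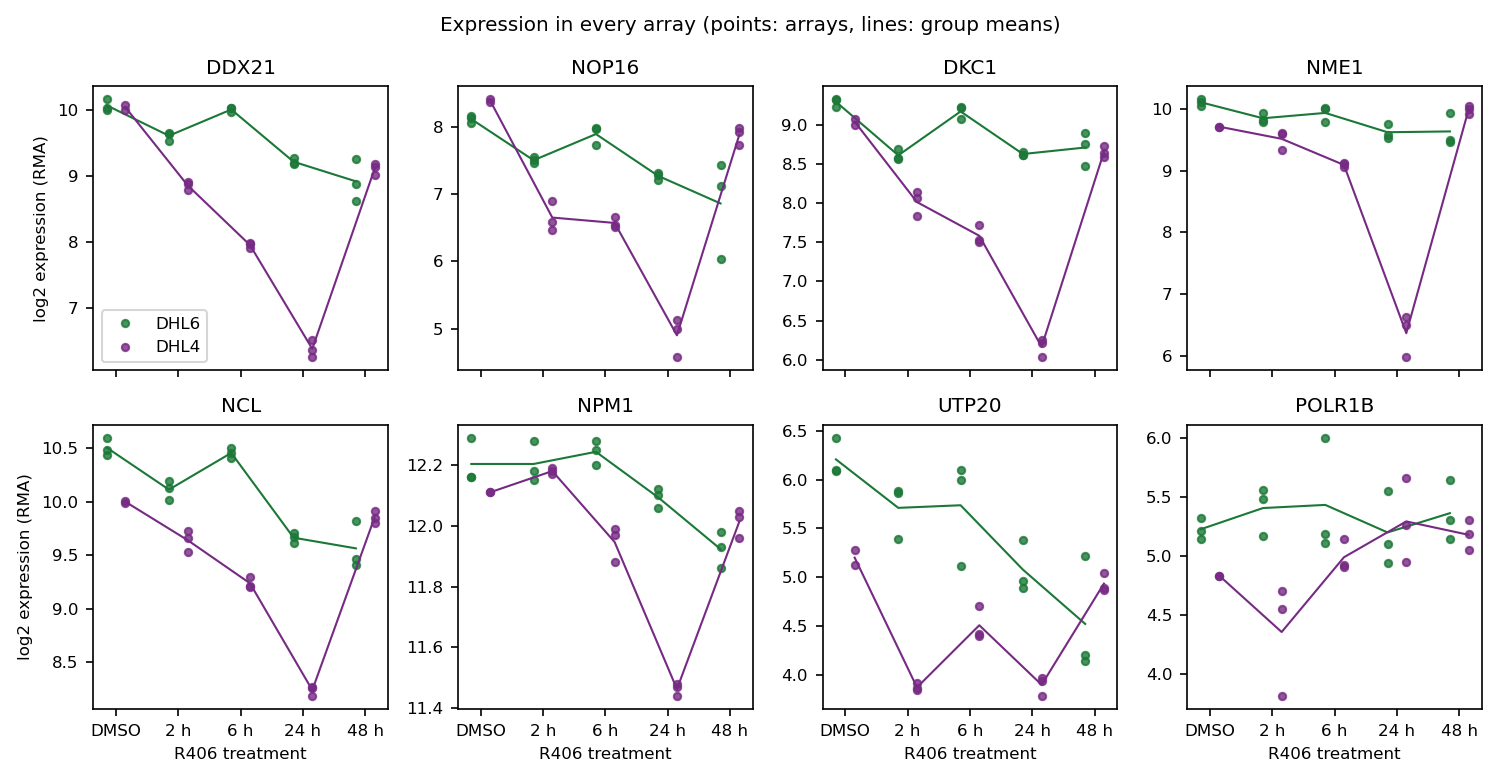
Log2 expression of 8 of the genes in every array (points) of DHL6 (green) and DHL4 (purple) in DMSO and after 2, 6, 24 and 48 h of R406, with lines joining the group means. The vertical axes differ between panels and do not start at 0. The DHL4 arrays of DDX21, NOP16, DKC1, NME1, NCL and NPM1 are lowest at 24 h and higher again at 48 h. At 48 h all of these except NME1 still lie below DMSO in every array, and only DDX21 and DKC1 were called. POLR1B shows no such dip.

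Of the 12 measured factors of the large subunit, 1 was called lower in DHL6 at 2 h, 0 at 6 h, 6 at 24 h and 11 at 48 h, with a median of -0.74 at 48 h. In DHL4, 10 were lower at 2 h, 11 at 6 h and all 12 at 24 h, each by at least 2-fold at 24 h and with a median of -2.18. PPAN was the factor not called in DHL6 at 48 h, at -0.33 ± 0.18 (adjusted p = 0.207). At 48 h in DHL4 MRTO4 alone was called, lower at -0.60 ± 0.14 (adjusted p = 0.00605).

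NOP16 is a nucleolar factor of the large subunit. Its DHL6 values were 8.06, 8.14 and 8.16 in DMSO, 7.46, 7.51 and 7.55 at 2 h, 7.74, 7.97 and 7.98 at 6 h, 7.22, 7.29 and 7.31 at 24 h, and 6.03, 7.13 and 7.43 at 48 h. Every R406 array of DHL6 lay below DMSO, and a single array at 48 h was lower than the rest by more than 1 log2 unit. NOP16 was called in DHL6 at 24 h, -0.85 ± 0.21 (adjusted p = 0.00634), and at 48 h, -1.25 ± 0.21 (adjusted p = 8.65e-05). In DHL4 its values were 8.38 and 8.42 in DMSO, 6.47, 6.59 and 6.90 at 2 h, 6.52, 6.54 and 6.66 at 6 h, 4.57, 5.0 and 5.13 at 24 h, and 7.73, 7.93 and 7.99 at 48 h. The DHL4 arrays were separated from DMSO at all 4 times, by most at 24 h. NOP16 changed in DHL4 by -1.74 ± 0.24 (adjusted p = 1.19e-05) at 2 h, -1.82 ± 0.24 (adjusted p = 3.13e-06) at 6 h and -3.49 ± 0.24 (adjusted p = 1.12e-11) at 24 h, the last an 11.3-fold fall. At 48 h the change was -0.51 ± 0.24 (adjusted p = 0.249) and was not called.

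BOP1, PES1 and WDR12 form the PeBoW complex, which is needed to mature the RNAs of the large subunit. BOP1 values in DHL6 were 6.32, 6.38 and 6.38 in DMSO, 5.67, 5.79 and 6.16 at 2 h, 6.46, 6.62 and 6.67 at 6 h, 6.20, 6.29 and 6.39 at 24 h, and 5.38, 5.60 and 6.07 at 48 h. Only the 48 h arrays were called lower, at -0.68 ± 0.17 (adjusted p = 0.00413). BOP1 values in DHL4 were 6.46 and 6.55 in DMSO, 5.23, 5.40 and 5.53 at 2 h, 5.0, 5.05 and 5.22 at 6 h, 3.93, 4.16 and 4.73 at 24 h, and 5.87, 5.97 and 6.10 at 48 h. They were below DMSO at every time and lowest at 24 h, -2.24 ± 0.19 (adjusted p = 5.37e-10), and the 48 h change of -0.53 ± 0.19 (adjusted p = 0.0956) was not called. PES1 came after UTP20 as the next largest fall of the set in DHL6 at 48 h. Its DHL6 values were 6.29, 6.41 and 6.44 in DMSO, 5.19, 5.75 and 6.11 at 2 h, 6.22, 6.32 and 6.44 at 6 h, 5.61, 5.70 and 5.74 at 24 h, and 4.34, 4.89 and 5.42 at 48 h. The 48 h arrays spread over more than 1 log2 unit and all lay below every DMSO, 6 h and 24 h array. The PES1 change was -0.70 ± 0.24 (adjusted p = 0.0473) at 24 h and -1.5 ± 0.24 (adjusted p = 3.62e-05) at 48 h. In DHL4 PES1 values were 6.25 and 6.34 in DMSO, 4.85, 5.55 and 6.05 at 2 h, 5.12, 5.26 and 5.35 at 6 h, 4.75, 4.93 and 4.94 at 24 h, and 6.09, 6.15 and 6.16 at 48 h. Its 6 h and 24 h arrays were lower, at -1.05 ± 0.26 (adjusted p = 0.00665) and -1.42 ± 0.26 (adjusted p = 0.00011), and its 48 h arrays were just below DMSO at -0.16 ± 0.26, not called. WDR12 changed by -0.71 ± 0.17 (adjusted p = 0.0033) in DHL6 at 48 h and by -2.49 ± 0.19 (adjusted p = 1.13e-10) in DHL4 at 24 h.

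NOP2 is a methyltransferase of the large subunit RNA. DHL6 values of NOP2 were 7.08, 7.15 and 7.34 in DMSO, 6.67, 6.86 and 6.99 at 2 h, 7.30, 7.37 and 7.38 at 6 h, 6.97, 7.01 and 7.02 at 24 h, and 6.36, 6.60 and 7.06 at 48 h. Arrays at 6 h overlapped DMSO or lay above it, and those at 2, 24 and 48 h were all below it. NOP2 was called in DHL6 at 48 h alone, -0.51 ± 0.14 (adjusted p = 0.00966). DHL4 values of NOP2 were 7.60 and 7.67 in DMSO, 6.50, 6.51 and 6.57 at 2 h, 6.02, 6.17 and 6.21 at 6 h, 5.2, 5.56 and 5.78 at 24 h, and 7.33, 7.33 and 7.57 at 48 h. They changed by -1.11 ± 0.16 (adjusted p = 2.68e-05) at 2 h, -1.5 ± 0.16 (adjusted p = 1.68e-07) at 6 h and -2.12 ± 0.16 (adjusted p = 7.74e-11) at 24 h, and the 48 h change was -0.22 ± 0.16, not called. Among the other factors of this subunit, the 24 h falls in DHL4 ran from -1.42 for NIP7 to -2.84 for RRP1B, with RRS1 at -2.59, MRTO4 at -2.77, GTPBP4 at -2.06, PPAN at -1.88 and WDR74 at -1.60. MRTO4 was lower in DHL6 at 3 of the 4 times, with changes of -0.59 at 2 h, -0.69 at 24 h and -1.37 at 48 h.

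Of the 12 measured factors of the small subunit, 3 were lower in DHL6 at 2 h, 0 at 6 h, 8 at 24 h and 9 at 48 h. In DHL4, 8 were lower at 2 h, 7 at 6 h, 9 at 24 h and 1 at 48 h. The median at 24 h was -0.67 in DHL6 and -1.41 in DHL4. The 3 members not called in DHL4 at 24 h were RRP9 (a protein of the U3 snoRNP), NOC4L (a partner of NOP14) and PNO1 (a late factor of the small subunit), and the same 3 were not called in DHL6 at 48 h. RRP9 and NOC4L had means of 3.40 and 3.64 over all arrays, near the lower end of the scale. A further PNO1 probe set was called lower in both comparisons.

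UTP20 is a component of the early small subunit particle. UTP20 values in DHL6 were 6.09, 6.10 and 6.43 in DMSO, 5.39, 5.86 and 5.88 at 2 h, 5.11, 6.0 and 6.10 at 6 h, 4.89, 4.96 and 5.38 at 24 h, and 4.14, 4.2 and 5.22 at 48 h. The 2 h, 24 h and 48 h arrays lay below DMSO, with 1 of the 48 h arrays about 1 log2 unit above the others. UTP20 had the largest falls of the set in DHL6 at these times, -1.13 ± 0.23 (adjusted p = 0.0011) at 24 h and -1.68 ± 0.23 (adjusted p = 7.23e-06) at 48 h. Its DHL4 values were 5.12 and 5.28 in DMSO, 3.84, 3.86 and 3.91 at 2 h, 4.40, 4.42 and 4.70 at 6 h, 3.78, 3.94 and 3.97 at 24 h, and 4.87, 4.89 and 5.04 at 48 h. They changed by -1.33 ± 0.26 (adjusted p = 0.00105) at 2 h and -1.30 ± 0.26 (adjusted p = 0.000273) at 24 h, and the 6 h and 48 h changes were not called.

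RRP12 is an export factor of the small subunit, and its probe set was dim, with a mean of 3.6. RRP12 values in DHL6 were 4.34, 4.46 and 4.53 in DMSO, 3.54, 3.80 and 3.96 at 2 h, 4.01, 4.15 and 4.30 at 6 h, 3.39, 3.55 and 3.56 at 24 h, and 3.39, 3.40 and 3.77 at 48 h. Arrays at all 4 times lay below DMSO without overlap, and the 6 h change was not called. The changes were -0.68 ± 0.15 (adjusted p = 0.00455) at 2 h, -0.94 ± 0.15 (adjusted p = 4.63e-05) at 24 h and -0.92 ± 0.15 (adjusted p = 4.83e-05) at 48 h. RRP12 values in DHL4 were 3.67 and 3.92 in DMSO, 3.10, 3.16 and 3.41 at 2 h, 2.66, 3.15 and 3.23 at 6 h, 3.01, 3.14 and 3.19 at 24 h, and 3.37, 3.57 and 3.78 at 48 h. They changed by -0.57 ± 0.17 at 2 h, -0.79 ± 0.17 at 6 h and -0.69 ± 0.17 at 24 h, all called.

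TSR1 acts late in small subunit maturation. DHL6 arrays of TSR1 read 7.06, 7.13 and 7.26 in DMSO, 6.36, 6.49 and 6.62 at 2 h, 7.18, 7.21 and 7.36 at 6 h, 6.41, 6.46 and 6.59 at 24 h, and 5.86, 6.16 and 6.18 at 48 h. They were below DMSO at 2, 24 and 48 h and overlapped it at 6 h. TSR1 changed in DHL6 by -0.66 ± 0.13 (adjusted p = 0.00145) at 2 h, -0.66 ± 0.13 (adjusted p = 0.000561) at 24 h and -1.08 ± 0.13 (adjusted p = 8.46e-07) at 48 h. DHL4 arrays of TSR1 read 6.73 and 6.97 in DMSO, 5.72, 5.85 and 5.87 at 2 h, 5.2, 5.42 and 5.47 at 6 h, 3.85, 4.07 and 4.41 at 24 h, and 5.83, 6.05 and 6.14 at 48 h. None of them reached DMSO, and the 48 h change of -0.85 ± 0.14 (adjusted p = 0.000311) came next in size after that of DDX21. DDX10, an RNA helicase, gave the largest fall of the set in DHL6 at 2 h. DHL6 arrays of DDX10 read 7.0, 7.09 and 7.29 in DMSO, 5.94, 6.19 and 6.41 at 2 h, 6.54, 6.75 and 6.92 at 6 h, 5.99, 6.39 and 6.46 at 24 h, and 6.38, 6.39 and 6.75 at 48 h. The 2 h arrays lay lowest together with those at 24 h, at -0.95 ± 0.17 (adjusted p = 0.000473) and -0.85 ± 0.17 (adjusted p = 0.00066) from DMSO, and the 6 h arrays were below DMSO without being called. DHL4 arrays of DDX10 read 6.41 and 6.49 in DMSO, 5.37, 5.74 and 5.93 at 2 h, 5.42, 5.54 and 5.75 at 6 h, 4.47, 4.94 and 5.01 at 24 h, and 6.57, 6.59 and 6.63 at 48 h. Those at 2, 6 and 24 h were called lower, most of all at 24 h, -1.64 ± 0.19 (adjusted p = 9.63e-08), and the 48 h arrays all lay above DMSO, 0.14 ± 0.19, not called. BYSL, another late factor, changed by -0.77 ± 0.16 (adjusted p = 0.000658) in DHL6 at 48 h and by -2.53 ± 0.17 (adjusted p = 1.61e-11) in DHL4 at 24 h.

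DKC1 is the pseudouridine synthase of the box H/ACA particles, and GAR1 and NHP2 are its partners. DKC1 values in DHL6 were 9.23, 9.32 and 9.33 in DMSO, 8.56, 8.58 and 8.69 at 2 h, 9.07, 9.21 and 9.23 at 6 h, 8.61, 8.62 and 8.65 at 24 h, and 8.48, 8.76 and 8.89 at 48 h. Its arrays at 2, 24 and 48 h lay below DMSO, and those at 6 h overlapped it. DKC1 changed in DHL6 by -0.69 ± 0.10 (adjusted p = 7.59e-05) at 2 h, -0.67 ± 0.10 (adjusted p = 4.09e-05) at 24 h and -0.58 ± 0.10 (adjusted p = 0.000156) at 48 h. DKC1 values in DHL4 were 9.0 and 9.08 in DMSO, 7.84, 8.06 and 8.14 at 2 h, 7.50, 7.53 and 7.72 at 6 h, 6.03, 6.22 and 6.25 at 24 h, and 8.59, 8.64 and 8.73 at 48 h. All lay below DMSO, and the change ran through -1.03 ± 0.12 at 2 h, -1.46 ± 0.12 at 6 h, -2.87 ± 0.12 at 24 h and -0.39 ± 0.12 (adjusted p = 0.041) at 48 h, all called. GAR1 fell with it at 2, 24 and 48 h in DHL6 (-0.63, -0.90 and -0.73) and at 2, 6 and 24 h in DHL4 (-1.04, -0.59 and -1.59).

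NHP2 was the single gene of the 38 called higher against DMSO anywhere. Its DHL6 values were 9.81, 9.86 and 9.92 in DMSO, 9.70, 9.76 and 9.86 at 2 h, 9.97, 10.12 and 10.16 at 6 h, 9.84, 9.86 and 9.97 at 24 h, and 9.82, 9.92 and 9.99 at 48 h. They overlapped DMSO at 2, 24 and 48 h and lay above it at 6 h, and 0 of the 4 changes were called. NHP2 values in DHL4 were 10.13 and 10.27 in DMSO, 10.02, 10.14 and 10.17 at 2 h, 9.92, 9.97 and 10.04 at 6 h, 9.19, 9.23 and 9.42 at 24 h, and 10.49, 10.63 and 10.64 at 48 h. The 24 h arrays were lower, -0.92 ± 0.10 (adjusted p = 4.99e-08), and the 48 h arrays all lay above it, 0.38 ± 0.10 (adjusted p = 0.0159). That last call was lost when arrays were centred on their medians, at 0.34 with an adjusted p of 0.0523. NOLC1, a chaperone of both kinds of snoRNP, was not called in DHL6 at any time with the probe set used. At 48 h in DHL6 that probe set changed by -0.38 ± 0.14, and further NOLC1 probe sets by -0.81 and -0.97, both called lower. In DHL4 NOLC1 changed by -0.78 ± 0.16, -1.27 ± 0.16 and -2.03 ± 0.16 at 2, 6 and 24 h.

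FBL is the methyltransferase of the box C/D particles and NOP56 their scaffold. FBL arrays in DHL6 read 10.11, 10.16 and 10.20 in DMSO, 9.95, 10.17 and 10.18 at 2 h, 10.10, 10.15 and 10.20 at 6 h, 9.88, 9.91 and 9.95 at 24 h, and 9.54, 9.64 and 9.91 at 48 h. FBL was called in DHL6 at 48 h alone, -0.46 ± 0.10 (adjusted p = 0.00096). FBL arrays in DHL4 read 9.86 and 10.02 in DMSO, 9.76, 9.83 and 9.84 at 2 h, 9.69, 9.73 and 9.83 at 6 h, 9.09, 9.21 and 9.32 at 24 h, and 9.79, 9.94 and 9.95 at 48 h. In DHL4 it was called at 24 h alone, -0.74 ± 0.11 (adjusted p = 5.32e-06), where all arrays lay below the rest. NOP56 arrays in DHL6 read 9.45, 9.63 and 9.78 in DMSO, 9.51, 9.54 and 9.56 at 2 h, 9.68, 9.69 and 9.70 at 6 h, 9.32, 9.36 and 9.46 at 24 h, and 8.86, 8.88 and 9.25 at 48 h. The 48 h arrays were all below DMSO, -0.62 ± 0.11 (adjusted p = 0.000129). NOP56 arrays in DHL4 read 9.39 and 9.44 in DMSO, 8.73, 8.92 and 9.09 at 2 h, 8.17, 8.22 and 8.26 at 6 h, 7.35, 7.37 and 7.54 at 24 h, and 9.0, 9.15 and 9.18 at 48 h. They were called lower at 2, 6 and 24 h, at -0.51 ± 0.12, -1.20 ± 0.12 and -2.0 ± 0.12, and all 48 h arrays stayed below DMSO without being called, -0.31 ± 0.12 (adjusted p = 0.148).

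NCL (nucleolin) and NPM1 (nucleophosmin) are among the most abundant proteins of the nucleolus, and NPM3 is a chaperone related to NPM1. NCL read 10.44, 10.48 and 10.60 in DMSO, 10.02, 10.13 and 10.19 at 2 h, 10.41, 10.46 and 10.50 at 6 h, 9.61, 9.67 and 9.71 at 24 h, and 9.41, 9.46 and 9.82 at 48 h in DHL6. The 2, 24 and 48 h arrays were below DMSO and the 6 h arrays overlapped it. NCL changed in DHL6 by -0.39 ± 0.10 (adjusted p = 0.0114), -0.84 ± 0.10 (adjusted p = 4.16e-07) and -0.94 ± 0.10 (adjusted p = 7.14e-08) at 2, 24 and 48 h. NCL read 9.99 and 10.01 in DMSO, 9.53, 9.66 and 9.73 at 2 h, 9.20, 9.21 and 9.30 at 6 h, 8.18, 8.26 and 8.27 at 24 h, and 9.80, 9.85 and 9.91 at 48 h in DHL4. It changed by -0.36 ± 0.11, -0.76 ± 0.11 and -1.76 ± 0.11 at 2, 6 and 24 h and was not called at 48 h, -0.15 ± 0.11. NPM1, the next gene, read 12.16, 12.16 and 12.29 in DMSO, 12.15, 12.18 and 12.28 at 2 h, 12.20, 12.25 and 12.28 at 6 h, 12.06, 12.10 and 12.12 at 24 h, and 11.86, 11.93 and 11.98 at 48 h in DHL6. All 24 h and 48 h arrays lay below DMSO, and the 48 h change of -0.27 ± 0.07 (adjusted p = 0.00778) was called. NPM1 read 12.11 and 12.11 in DMSO, 12.17, 12.18 and 12.19 at 2 h, 11.88, 11.97 and 11.99 at 6 h, 11.44, 11.47 and 11.48 at 24 h, and 11.96, 12.03 and 12.05 at 48 h in DHL4. NPM1 was called in DHL4 at 24 h alone, -0.65 ± 0.08 (adjusted p = 6.55e-07). That probe set had a mean of 12.03, near the top of the scale. Further NPM1 probe sets, with means of 11.47 and 10.45, changed by -0.79 and -1.28 there, both called lower. NPM3 was called at no time in DHL6 and changed by -2.29 ± 0.31 (adjusted p = 1.89e-06) in DHL4 at 24 h.

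POLR1B, a core subunit of the enzyme, read 5.14, 5.21 and 5.32 in DMSO, 5.17, 5.48 and 5.56 at 2 h, 5.11, 5.18 and 6.0 at 6 h, 4.94, 5.10 and 5.55 at 24 h, and 5.14, 5.30 and 5.64 at 48 h in DHL6. Its R406 groups all overlapped DMSO, and 0 of the 4 changes were called. POLR1B read 4.83 and 4.83 in DMSO, 3.81, 4.55 and 4.70 at 2 h, 4.90, 4.92 and 5.14 at 6 h, 4.95, 5.26 and 5.66 at 24 h, and 5.05, 5.18 and 5.30 at 48 h in DHL4. The 2 h arrays lay below DMSO and the 6, 24 and 48 h arrays above it, and none of these changes was called, with -0.48 ± 0.25 (adjusted p = 0.284) at 2 h and 0.46 ± 0.25 (adjusted p = 0.208) at 24 h. POLR1C, which RNA polymerase III also uses, was not called in DHL6 and changed in DHL4 by -0.95 ± 0.25 (adjusted p = 0.0105) at 6 h and -1.34 ± 0.25 (adjusted p = 0.000131) at 24 h.

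By gene, and with the probe sets used, the course in DHL6 had 4 forms. DKC1, GAR1, NCL, RRP12, TSR1, DDX10, MRTO4 and DDX21, 8 genes, were lower at 2, 24 and 48 h and not called at 6 h. A further 11 genes were lower at 24 and 48 h, 9 at 48 h alone, and 10 at no time (POLR1B, POLR1C, NHP2, NOLC1, NPM3, RRP9, PNO1, NOC4L, PPAN and PUS7). Further probe sets of NOLC1 and PNO1 were called lower in DHL6 at 48 h. In DHL4, 19 genes were lower at 2, 6 and 24 h, 4 at all times, 6 at 24 h alone (FBL, NHP2, NPM1, NPM3, IMP4 and NIP7), 5 at 2 of the times, PNO1 at 6 h alone, and POLR1B, RRP9 and NOC4L at none. A further PNO1 probe set was called lower in DHL4 at 2, 6 and 24 h. With the probe sets used, every gene lowered in DHL6 at 2 or 24 h was also lowered in DHL4 at that time, 8 and 19 genes. At 48 h, 4 genes were lower in both lines and 24 in DHL6 and not called in DHL4.

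Steps between R406 times do not use the DMSO means, although the DMSO arrays enter the shared estimate of the spread. In DHL6, 8 genes were higher at 6 h than at 2 h, against 1.88% of all genes (0 lower, against 2.57%), with TSR1 (0.76 ± 0.13), BOP1 (0.72 ± 0.17) and DKC1 (0.56 ± 0.10) largest. From 6 h onward, 12 genes were lower at 24 h than at 6 h, against 2.53% of all genes (0 higher, against 3.30%), led by NCL (-0.79 ± 0.10), DDX21 (-0.79 ± 0.11) and TSR1 (-0.76 ± 0.13). These counts were sensitive to single arrays: without 1 array at a time they ran from 2 to 4 and from 6 to 13. The lowest of these came without DHL6 2 h replicate 1 for the 6 h step and, among others, without DHL6 6 h replicate 1 for the 24 h step.

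In DHL4, 11 genes were lower at 6 h than at 2 h, against 3.30% of all genes, and 0 were higher, against 8.37%. The largest falls were those of DDX21 (-0.91 ± 0.11), NOP56 (-0.70 ± 0.11) and PNO1 (-0.69 ± 0.21). The PNO1 step depended on the probe set used, since the other PNO1 probe set stood at -1.76 at 2 h and -1.9 at 6 h against DMSO. The count was 5 without either replicate 1 or replicate 2 of the 6 h arrays. A further step down followed, with 25 genes lower at 24 h than at 6 h, against 13.5% of all genes (0 higher, against 8.75%), led by NME1 (-2.73 ± 0.14), WDR12 (-1.86 ± 0.17) and NPM3 (-1.68 ± 0.28). NME1 made most of its fall in this step, whereas PUS7 stood at -2.07 ± 0.26 from DMSO at 2 h and -2.10 ± 0.26 at 24 h.

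Between 24 and 48 h most of the genes rose in DHL4, and none was called higher in DHL6. In DHL4, 35 of the 38 genes were higher at 48 h than at 24 h, against 14.4% of all genes, and 0 lower, against 10.7%, with a median of 1.60. NME1 (3.62 ± 0.14, 12.3-fold), NOP16 (2.98 ± 0.21, 7.89-fold) and DDX21 (2.73 ± 0.11, 6.62-fold) were highest. All 34 genes that were lower at 24 h in DHL4 were among the 35, and against DMSO 29 of these 34 were no longer called at 48 h. For 32 of the 33 genes not called at 48 h, the 95% interval lay within 1 log2 unit of DMSO either way, over a range from -1.0 to 0.86. In DHL6, 5 genes were lower at 48 h than at 24 h and 0 higher, against 5.06% of all genes called lower and 1.65% higher, with a median of -0.12. PES1 (-0.80 ± 0.24), MRTO4 (-0.68 ± 0.12) and BOP1 (-0.61 ± 0.17) were the largest of these. The DHL6 count was 12 without replicate 2 of the 48 h arrays and 1 without any other of the 6 arrays. It was 2 after quantile normalization or with the mean of all probe sets of a gene, and 0 in a fit on the compared groups alone. The step itself differed between lines, DHL6 minus DHL4, for 33 genes, all lower in DHL6, against 13.9% of all genes (0 higher, against 7.86%), with a median of -1.74 and NME1 (-3.61 ± 0.19 (adjusted p = 2.14e-12)) at the end of the range. That count was 33 whichever array was left out. Among genes with a mean of 5 or more, 31 of 33 members were higher at 48 h than at 24 h in DHL4 (37.6% of these genes), and the step was lower in DHL6 for 31 (38.7%).

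**Figure D3:**
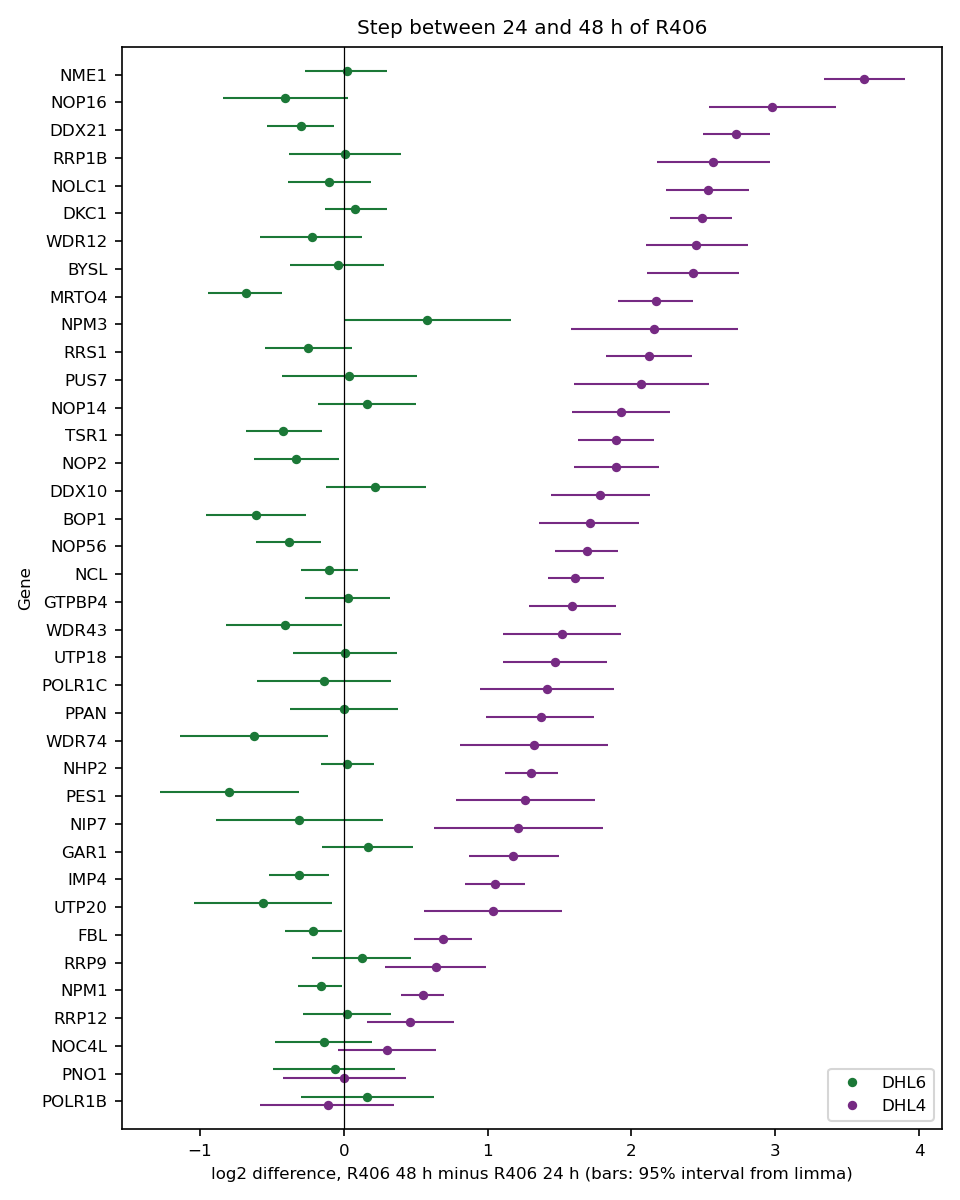
Log2 difference, R406 48 h minus R406 24 h, of the 38 genes in DHL6 (green) and DHL4 (purple), sorted by the DHL4 value, with bars for the 95% interval from limma. The DHL6 points lie between -0.80 for PES1 and 0.58 for NPM3, and the DHL4 intervals of 35 genes lie wholly to the right of 0, with points up to 3.62 for NME1.

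Of the 5 fibroblast and endothelial markers, only DCN and PECAM1 moved in DHL4 over the same times, in opposite directions at 6 and 24 h. DCN, a proteoglycan gene of fibroblasts, averaged 8.43 in DMSO, 8.39 at 2 h, 6.45 at 6 h, 4.42 at 24 h and 8.68 at 48 h in DHL4. PECAM1, an endothelial gene that some blood cells also express, averaged 3.08, 3.37, 4.16, 7.64 and 4.79 at the same points. In DHL6 both stayed between 2.66 and 2.94. Over all 5 fibroblast and endothelial markers, the mean log2 level of an array ran from 2.83 to 3.17 in DHL6, and in DHL4 from 4.07 to 4.18 in DMSO, 4.1 to 4.19 at 2 h, 3.9 to 4.03 at 6 h, 4.25 to 4.39 at 24 h and 4.48 to 4.61 at 48 h. COL1A1, COL3A1 and VWF were near the lower end in every group, and any part of fibroblasts or endothelial cells in the DHL4 course was not tested.

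The response itself was tested between lines as the DHL6 change minus the DHL4 change at the same time, where a positive value means that the gene was lowered less, or raised more, in DHL6. At 2 h, 3 genes differed, all higher in DHL6, against 1.22% of all genes higher and 0.534% lower: PUS7 (1.71 ± 0.34 (adjusted p = 0.00568)), RRS1 (1.14 ± 0.22 (adjusted p = 0.00426)) and DDX21 (0.72 ± 0.17 (adjusted p = 0.021)). That count was 0 without DHL4 DMSO replicate 1 and 6 without replicate 2 of DHL4 at 2 h. At 6 h, 20 genes differed, all higher in DHL6, against 3.08% of all genes higher and 3.96% lower, with a median of 0.94 over the 38. The largest were DDX21 (2.02 ± 0.17), PUS7 (1.71 ± 0.34) and NOP2 (1.66 ± 0.21). At 24 h, 30 genes differed the same way, against 9.35% of all genes higher and 7.00% lower, with a median of 1.33 and with NME1 (2.86 ± 0.20), DDX21 (2.81 ± 0.17) and NOP16 (2.65 ± 0.32) largest. The 8 genes not called at 24 h were POLR1B, UTP20, RRP9, RRP12, PNO1, NOC4L, PES1 and NIP7, and RRP12, at -0.26 ± 0.22, and POLR1B, at -0.48 ± 0.34, had negative values. Among genes with a mean of 5 or more, 29 of 33 members differed (27.5% of these genes).

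At 48 h the sign turned. Of the 38 genes, 7 were lower in DHL6 relative to DHL4, against 3.46% of all genes, 0 were higher, against 1.62%, and the median was -0.39. The largest were UTP20 (-1.42 ± 0.35 (adjusted p = 0.0163)), PES1 (-1.34 ± 0.35 (adjusted p = 0.0254)) and NOLC1 (-0.88 ± 0.21 (adjusted p = 0.0136)). MRTO4, NCL, NME1 and IMP4 were the other 4, at -0.77, -0.79, -0.75 and -0.69. This count moved with single arrays, to 15 without replicate 2 of DHL6 at 48 h, to 4 without replicate 1 of DHL6 at 48 h, DHL6 DMSO replicate 1 or DHL4 DMSO replicate 1, and to 1 without DHL4 DMSO replicate 2.

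MYC was read by a single probe set and, up to 24 h, moved in opposite directions in the lines. MYC read 9.28, 9.33 and 9.35 in DMSO, 10.25, 10.27 and 10.32 at 2 h, 10.39, 10.43 and 10.47 at 6 h, 10.28, 10.32 and 10.36 at 24 h, and 10.05, 10.07 and 10.07 at 48 h in DHL6. Every R406 array of DHL6 lay above every DMSO array. MYC was raised in DHL6 by 0.96 ± 0.07 (adjusted p = 3.27e-09), 1.11 ± 0.07 (adjusted p = 1.5e-10), 1.0 ± 0.07 (adjusted p = 4.6e-10) and 0.74 ± 0.07 (adjusted p = 6.02e-08) at 2, 6, 24 and 48 h. MYC read 9.98 and 10.0 in DMSO, 8.60, 8.68 and 8.75 at 2 h, 8.59, 8.68 and 8.72 at 6 h, 8.61, 8.63 and 8.71 at 24 h, and 10.12, 10.16 and 10.25 at 48 h in DHL4. The 2, 6 and 24 h arrays lay more than 1 log2 unit below DMSO at one common level, and the 48 h arrays lay just above DMSO. MYC changed in DHL4 by -1.31 ± 0.08 (adjusted p = 4.9e-11), -1.33 ± 0.08 (adjusted p = 1.84e-11) and -1.34 ± 0.08 (adjusted p = 2.42e-12) at 2, 6 and 24 h, and its 48 h change of 0.19 ± 0.08 (adjusted p = 0.231) was not called. The difference between lines was called at all 4 times, at 2.27 ± 0.11, 2.44 ± 0.11, 2.34 ± 0.11 and 0.56 ± 0.11. In DHL4 MYC was at its lower level from 2 h on, with steps of -0.02 ± 0.07 to 6 h and -0.01 ± 0.07 to 24 h that were not called, while 25 of the 38 genes fell further between 6 and 24 h. From 24 h to 48 h MYC and the set were both higher in DHL4, MYC by 1.53 ± 0.07. In DHL6, MYC was higher than in DMSO at 24 and 48 h, when 19 and 28 of the 38 genes were lower.

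**Figure D4:**
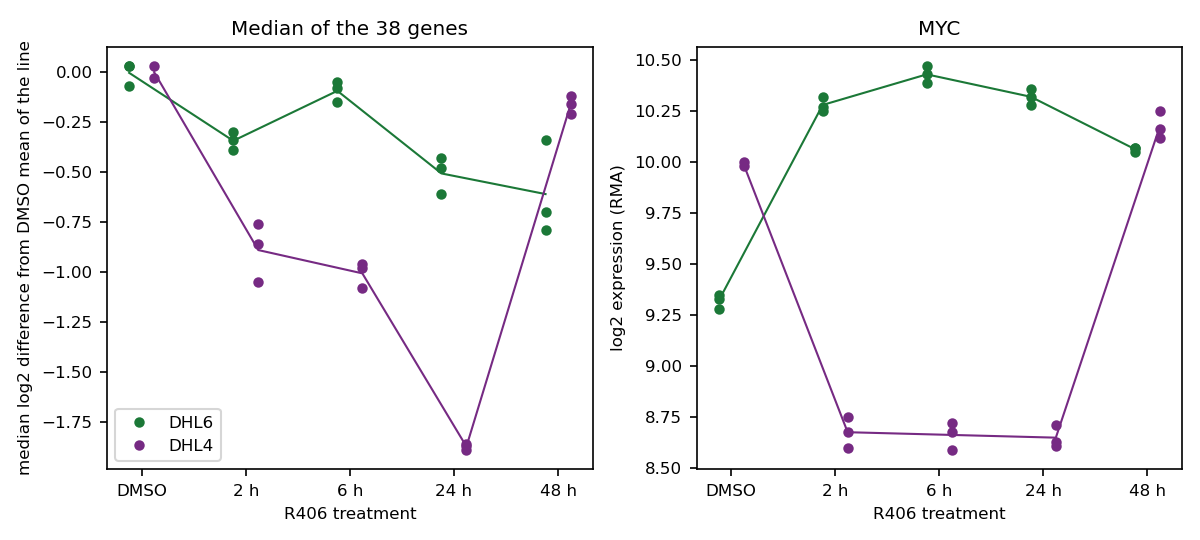
Left, the median over the 38 genes of each array's log2 difference from the DMSO mean of its line. Right, log2 expression of MYC in the same arrays, for DHL6 (green) and DHL4 (purple) in DMSO and after 2, 6, 24 and 48 h of R406, with points for arrays and lines through group means. In DHL4 both panels are low at 2 to 24 h and near DMSO at 48 h, and in DHL6 the median is lowest at 48 h, at -0.79 to -0.34, while MYC lies above DMSO at every R406 time.

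Other factors of ribosome assembly were counted from a wider list of 114 genes outside the set, 95 of them measured. In DHL6, 6 were lower and 2 higher at 2 h, 1 lower and 2 higher at 6 h, 18 lower and 3 higher at 24 h, and 56 lower and 4 higher at 48 h. As shares of the 95, the lower calls were 6.32%, 1.05%, 18.9% and 58.9%, against 3.16%, 5.12%, 8.17% and 14.9% of all genes, so that the share at 6 h was below that of all genes. The higher calls, 2.11% to 4.21%, were at or below the 2.14% to 8.39% of all genes. In DHL4 the counts were 31 lower and 0 higher at 2 h, 33 and 1 at 6 h, 65 and 3 at 24 h, and 6 and 1 at 48 h. The lower calls in DHL4 were 32.6%, 34.7%, 68.4% and 6.32% of the 95, against 6.81%, 6.36%, 16.5% and 3.80% of all genes, and the higher calls, up to 3.16%, were below those of all genes at each time. The largest DHL6 falls at 24 h were RRP15 (-1.64), GNL2 (-1.11), POP1 (-0.87) and HEATR1 (-0.83), and the DHL6 rises were NOL9 (1.40), POLR1D (0.98) and DDX54 (0.57). The largest DHL4 falls at 24 h were RRP15 (-3.10), MAK16 (-2.34), GNL2 (-2.32) and UTP14A (-2.23), and the DHL4 rises were NOL9 (3.91), TSR2 (0.63) and NOP53 (0.27). Cytosolic ribosomal proteins, the products that the assembly factors package, were also counted. Of 77 listed, 62 were measured, and 0 were called lower by limma in either line at any time, with 0 lower also at an unadjusted p below 0.05. In DHL6, 0, 0, 5 and 11 of them were higher at 2, 6, 24 and 48 h, and in DHL4 0, 0, 27 and 3 were higher. The DHL6 shares were 8.06% at 24 h and 17.7% at 48 h, against 6.20% and 8.39% of all genes, and the DHL4 shares were 43.5% at 24 h and 4.84% at 48 h, against 13.0% and 3.53%. The higher calls depended on the scaling: in DHL4 at 24 h, 20 were higher after quantile normalization and 12 after centring, and in DHL6 at 48 h, 13 and 1. The median log2 fold changes of the 62 stayed between 0.04 and 0.19. Their median level over all arrays was 12.54, near the top of the scale of 13.5, where array signals are known to saturate.

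**Figure D5:**
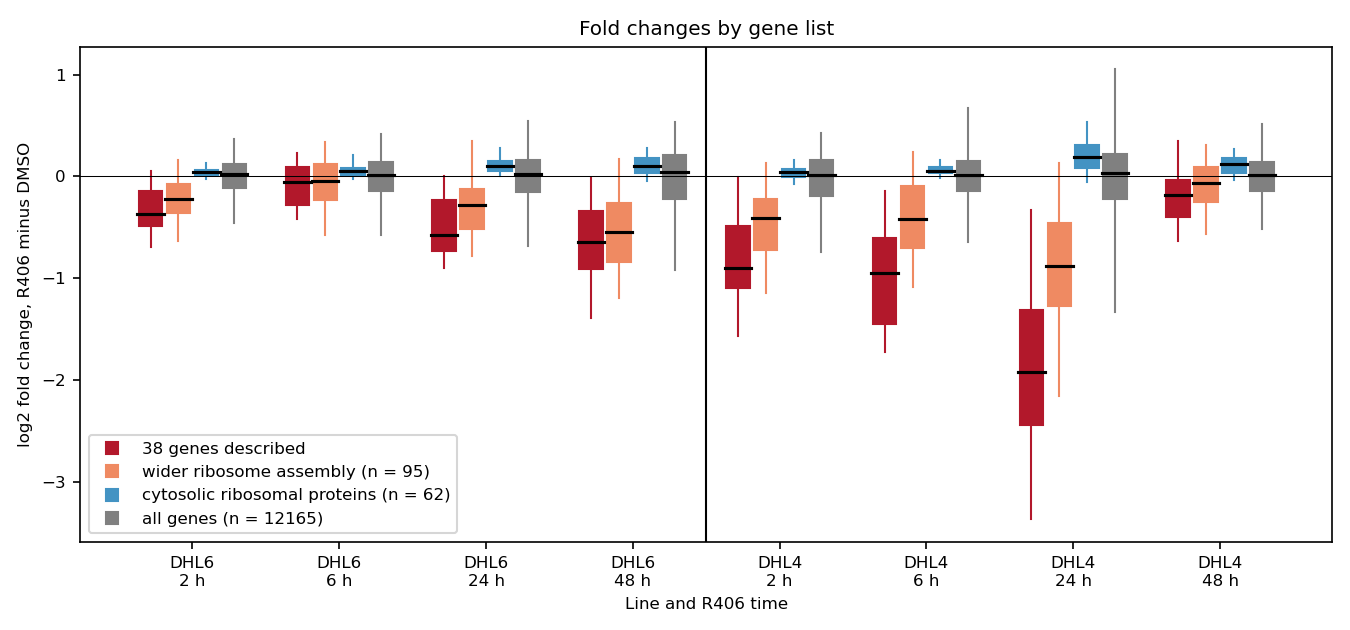
Log2 fold change, R406 minus DMSO, in DHL6 (left) and DHL4 (right) at 2, 6, 24 and 48 h for the 38 genes (red), 95 other assembly factors (orange), 62 cytosolic ribosomal proteins (blue) and all 12165 genes (grey). Boxes span the middle 50% of genes, black lines are medians and whiskers run from the 5th to the 95th percentile. The 38 genes have a median of -1.92 at 24 h in DHL4, and the ribosomal proteins stay just above 0.

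In DMSO the lines already differed for 13 of the 38 genes, DHL6 minus DHL4. Of the 38, 9 were higher (23.7%, against 10.0% of all genes) and 4 lower (10.5%, the same share as over all genes). Among these were BYSL (1.34 ± 0.17 (adjusted p = 1.56e-06)), UTP20 (1.01 ± 0.26 (adjusted p = 0.0056)) and POLR1C (0.98 ± 0.25 (adjusted p = 0.00532)) on the higher side and IMP4 (-0.99 ± 0.11 (adjusted p = 2.47e-07)), PPAN (-0.61 ± 0.20 (adjusted p = 0.032)) and NOP2 (-0.45 ± 0.16 (adjusted p = 0.0491)) on the lower side, with NHP2 (-0.34 ± 0.10 (adjusted p = 0.0158)) the other gene that was lower. Without DHL4 DMSO replicate 1 the count was 4, and without replicate 2 it was 7. MYC was lower in DHL6 than in DHL4 in DMSO, at -0.67 ± 0.08 (adjusted p = 7.44e-07).

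Of the 38 genes, 15 had further probe sets on the array, 22 in all. Of the 11 with a mean of 5 or more, 2, 0, 5 and 9 were called lower in DHL6 at 2, 6, 24 and 48 h, and 6, 7, 10 and 2 in DHL4, and none was called higher. Some further probe sets of PNO1, TSR1, NOP16 and NOLC1 disagreed with those used. For PNO1 the probe set used changed by -0.29 ± 0.23 in DHL4 at 24 h and -0.03 ± 0.21 in DHL6 at 48 h, neither called. The other PNO1 probe set, with a mean of 6.30, changed by -3.83 and -1.64 in the same comparisons, both called lower. In DHL4 at 2 and 6 h it changed by -1.76 and -1.9, both called lower, against -0.06 and -0.74 for the one used. For TSR1, a probe set with a mean of 5.05 changed by 0.57 in DHL4 at 24 h, not called, against -2.74 for the one used. For NOP16, a dim probe set with a mean of 2.94 changed by 0.12, not called, and another with a mean of 5.3 by -3.45, called, against -3.49 for the one used. For NOLC1 in DHL6 at 48 h, probe sets with means of 5.77 and 5.33 changed by -0.81 and -0.97, both called lower. The NOLC1 probe set used changed by -0.38 there and was not called.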

How the data were processed

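Expression was measured on Affymetrix arrays with 22277 probe sets, and the deposited values are log2 signals that the authors obtained with RMA (background correction, quantile normalization and probe summary), per the submitters' processing notes. These values were used as deposited. Probe sets with 1 gene symbol were kept (19724), symbols were updated through Entrez identifiers, and the probe set with the highest mean over the 29 arrays stood for its gene. A total of 568 probe sets with several symbols, 1923 with no listed gene and 62 controls were left out.

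A model of 10 group means was fitted to 12165 genes with limma 3.58.1 (lmFit and eBayes) in R 4.3.3, with 19 residual and 5.05 prior degrees of freedom, and p-values were adjusted within each comparison by the Benjamini-Hochberg method. The procedure was tested on simulated data. The precision is limited by the number of arrays. No replicate arrays had identical values. The members and lists were chosen with earlier results of these data known. Members with per-array values were chosen genes of each role and those with the 2 largest called changes against DMSO, and for other comparisons the 3 largest called changes were named.

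Arrays were not paired by replicate number in the main model, and the labels do not say that equal numbers share a culture. Deviations from group means of 126 same-numbered array pairs had a median correlation of 0.01, from -0.44 to 0.35, with 18 pairs above 0.1. Whether some same-numbered arrays share a culture was not tested beyond these values and a replicate block. Alternatives were quantile normalization, centring of arrays, a fit on the compared groups alone, the mean of all probe sets of a gene, leaving out dim genes, a replicate block, limma's trend and robust options, and leaving out each array. Promoters came from RefSeq windows on GRCh38.p14, and no protein sequences were used here.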

Additional observations from a re-analysis of the deposited data

Results flagged for a closer look

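The response to R406 differed between the lines by the test of the difference itself, DHL6 change minus DHL4 change, for 3 of the 38 genes at 2 h, 20 at 6 h, 30 at 24 h and 7 at 48 h. PUS7 (1.71), RRS1 (1.14) and DDX21 (0.72) had the largest differences at 2 h. DDX21 (2.02), PUS7 (1.71) and NOP2 (1.66) had them at 6 h, and NME1 (2.86), DDX21 (2.81) and NOP16 (2.65) at 24 h. At 48 h the largest differences were of the other sign, with UTP20 at -1.42, PES1 at -1.34 and NOLC1 at -0.88. The 48 h minus 24 h step differed for 33 genes, all lower in DHL6. MYC differed at all 4 times, by 2.27 at 2 h, 2.44 at 6 h, 2.34 at 24 h and 0.56 at 48 h.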

How the results depend on the processing

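Of 153 calls on single genes, 144 held under quantile normalization, 152 with centred arrays, 136 in fits on the compared groups alone, 140 with the mean of all probe sets, 151 with trend and robust options, and 137 of 137 without dim genes. Leaving out single arrays kept 740 of 824, and 0 calls reversed under any of these settings. Without genes of a mean below 5, 7 members were lower in DHL4 at 48 h, and 6 differed between lines at 2 h. In fits on the compared groups alone, 15 were lower in DHL6 at 2 h, 5 differed between lines at 2 h and 3 at 48 h, 7 changed in DHL4 between 2 and 6 h, and in DHL6 1 changed between 2 and 6 h and 0 between 24 and 48 h (5 in the fit on all groups, and 1 or more with single arrays left out). Centring gave 4 genes for the DHL6 6 h minus 2 h step. For the DHL6 48 h minus 24 h step, quantile normalization and the mean of all probe sets each gave 2.

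With single arrays left out, the members called lower against DMSO ranged from 5 to 9 at 2 h, 0 to 0 at 6 h, 15 to 17 at 24 h and 22 to 29 at 48 h in DHL6, and from 20 to 26, 22 to 26, 34 to 34 and 2 to 4 at these times in DHL4. The differences between lines ranged from 0 to 6 genes at 2 h, 16 to 21 at 6 h, 26 to 29 at 24 h and 1 to 15 at 48 h. Steps in DHL6 ranged from 2 to 4 (6 h minus 2 h), 6 to 13 (24 h minus 6 h) and 1 to 12 (48 h minus 24 h), and in DHL4 from 5 to 9, 25 to 26 and 34 to 36. The line difference of the last step was 33 in every such fit, and 4 to 11 members differed in DMSO.

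With the replicate number as a block, 8, 0, 19 and 28 members were lower in DHL6 at 2, 6, 24 and 48 h, and 24, 27, 34 and 3 in DHL4. The labels do not say that equal numbers pair the arrays. For 17 of 29 arrays, deviations from group means correlated more, on average, with same-numbered arrays than with the others. Of 153 single-gene calls, 150 held under the block.

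Scaling moved the split of all called genes, lower against higher. It was 1810 to 1021 in DHL6 at 48 h, against 1341 to 1228 after quantile normalization and 2219 to 585 after centring. In DHL4 at 2 h it was 828 to 325, against 652 to 551 after quantile normalization. After quantile normalization, the differences between lines gave 94 to 125 at 2 h (65 to 149 as deposited) and 349 to 327 at 48 h (421 to 197). The DHL4 6 h minus 2 h step gave 623 to 717 (401 to 1018), the DHL6 48 h minus 24 h step 432 to 362 (616 to 201), and its line difference 1405 to 1236 (1697 to 956). The cause was not tested. Group sizes of 2 or 3 arrays, and signals near the lower end of the scale, limit what could be called.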

Other observations

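NOL9, a polynucleotide kinase of large subunit processing, was chosen after its values were seen, since it went against the other assembly factors. Its mean log2 level in DHL6 was 7.16 in DMSO, 7.07 at 2 h, 7.61 at 6 h, 8.56 at 24 h and 7.95 at 48 h. In DHL4 it was 5.89 in DMSO, 5.16 at 2 h, 5.98 at 6 h, 9.80 at 24 h and 5.91 at 48 h, with a standard deviation of 0.01 over the 3 arrays at 24 h. The DHL4 arrays at 24 h, whose correlation with the DMSO mean of their line was below that of the other R406 arrays of DHL4, were high in NOL9 and PECAM1, and low in most ribosome biogenesis genes and DCN, and those at 48 h were back near their DMSO level for NOL9 and DCN. NOL9 was read by 1 probe set.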
